A study of Mus musculus with 8 samples.

Results

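The genes described here encode membrane proteins and lipid transfer proteins of the lysosome: Lamp1, Lamp2, Cd63, Cd68, Scarb2, Npc1, Npc2, Laptm4a, Laptm4b and Laptm5. They were followed through every probe set that carried one of these symbols and no other. A probe set is a group of short array probes that together give 1 expression value. Of the 10 genes, 9 were measured, by 18 probe sets, among 12393 genes in all. Cd63 was not analysed here.

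The lysosome digests material from endocytosis and autophagy in an acid space bounded by a single membrane. LAMP-1 and LAMP-2 are the heavily glycosylated proteins that coat the inner face of that membrane, and CD68 is a relative of them found mainly in macrophages and microglia. LIMP-2, the product of Scarb2, carries glucocerebrosidase to the lysosome. NPC2 is a soluble protein that lifts cholesterol out of the lysosomal lumen and hands it to NPC1 in the membrane for export, and loss of either causes Niemann-Pick disease type C. The LAPTM proteins span the lysosomal membrane several times, and LAPTM5 is the form of blood cells and microglia.

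The hippocampus of the right hemisphere was profiled in 4 normal and 4 mutant mice, with 1 Affymetrix array for each animal. Mutant mice were mps/mps at Gusb, whose product, beta-glucuronidase, cuts glucuronic acid from glycosaminoglycans in the lysosome, and are a model of mucopolysaccharidosis VII. The animals called normal were mps/+ carriers, not wild type. All 8 mice came from carrier matings on B6.C-H2-Kbm1/ByBir, and both groups thus share that background. Each group held 2 females and 2 males. Normals 1 to 4 were aged 38.3 (female), 25.6 (male), 19.6 (male) and 14.6 (female) weeks, and mutants 1 to 4 were aged 38.3 (female), 25.6 (male), 25.6 (male) and 19.6 (female) weeks. Values are log2 expression per probe set, so that a difference of 1 is a doubling.

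Some arrays stood apart before any comparison. In normal 1 the mean of the 3 prime minus 5 prime values of actin and Gapdh, a measure of RNA quality, was 3.58, against 0.22 to 0.75 in the other 7. Striatal genes, which should be low in hippocampus, averaged 9.57 to 10.75 in normals 1, 3 and 4, and 6.38 to 7.53 elsewhere. The mean of 4 markers of dentate granule cells, a defining hippocampal cell type, was highest in mutant 3 (6.24) and mutant 1 (4.92). Mutants 2 and 4 were at 3.72 and 3.85, and the normals ranged from 3.54 to 4.48. Prox1, 1 of these markers, went the other way among mutants, at 5.08 and 4.83 in mutants 2 and 4. It read 2.90 in mutant 1 and 3.82 in mutant 3. The highest Bacillus control, which stands for a transcript absent from the tissue, was at 3.72. Choroid plexus genes averaged 8.70 and 7.96 in mutants 1 and 3, against 5.01 to 6.11 in the remaining arrays. Of the 2 probe sets of Gusb, 1 (1448124_at) lay lower in every mutant (4.36 to 4.71) than in every normal (5.40 to 6.56), and the other (1430332_a_at) had means of 5.77 and 5.93.

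Regulatory sequence was available for 7 of the 9 genes, as RefSeq windows (GRCm38.p6) from 250 bases before to 50 bases after the annotated start. The 80 bases just before the start are shown for the genes whose mutant and normal values did not overlap, and for Lamp1 as the member with the most matches to the motif that binds TFEB, a known activator of lysosomal genes. Capitals mark CACGTG, the core of that motif and its own reverse complement, and GAGGAAG or its reverse complement CTTCCTC, a form of the purine box bound by the macrophage factor PU.1. These motifs do not overlap each other.
Lamp1 (chr8:13159081-13159160, plus strand): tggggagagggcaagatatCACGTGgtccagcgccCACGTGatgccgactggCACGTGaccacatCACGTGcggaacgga
Lamp2 (chrX:38456461-38456540, minus strand): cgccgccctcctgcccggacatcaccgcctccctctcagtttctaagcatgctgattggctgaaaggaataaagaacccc
Cd68 (chr11:69666171-69666250, minus strand): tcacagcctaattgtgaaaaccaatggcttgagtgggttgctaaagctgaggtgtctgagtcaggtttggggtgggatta
Npc2 (chr12:84773113-84773192, minus strand): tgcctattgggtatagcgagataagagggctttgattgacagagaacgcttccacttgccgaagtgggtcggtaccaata
Laptm5 (chr4:130913236-130913315, plus strand): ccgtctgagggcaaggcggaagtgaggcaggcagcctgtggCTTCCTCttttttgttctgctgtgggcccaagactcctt

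Lamp1 held 4 copies of CACGTG, and the windows of Lamp2, Cd68, Scarb2, Npc2, Laptm4a and Laptm5 held 0. Of all 32851 windows of 300 bases, 7.15% held at least 1 copy and 0.0244%, or 8 windows, held 4 or more. GAGGAAG was matched once in Laptm5 and in no other of the 7, against 13.6% of all windows. A match describes the letters of the window and does not show a bound site.

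All 9 genes had a higher mean in mutants than in normals, where 52.5% of all genes did, and 1 of them, Cd68, rose past an adjusted p of 0.05. Changes were tested with limma over all 12393 genes, and Benjamini-Hochberg adjusted p-values are given throughout. Over all genes 0.0968% rose past that threshold and 0.105% changed in either direction. Every mutant lay above every normal for 4 of the 9, namely Cd68, Laptm5, Lamp2 and Npc2, against 2.27% of all genes. The same 4 had an unadjusted p under 0.05, against 4.05% of all genes that were higher at that level. The median change of the 9 was 0.26 on the log2 scale, beside 0.011 over all genes. The members were chosen with earlier results of these data known, and genes read in the same 8 arrays are not independent. These shares are thus a description and no test of the set. Without normals 1 and 3, the members with a higher mean were 6 of 9, and without normal 1 they were 8 of 9. Both fits kept normal 4, which also had a high striatal mean (9.57).

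**Figure D1:**
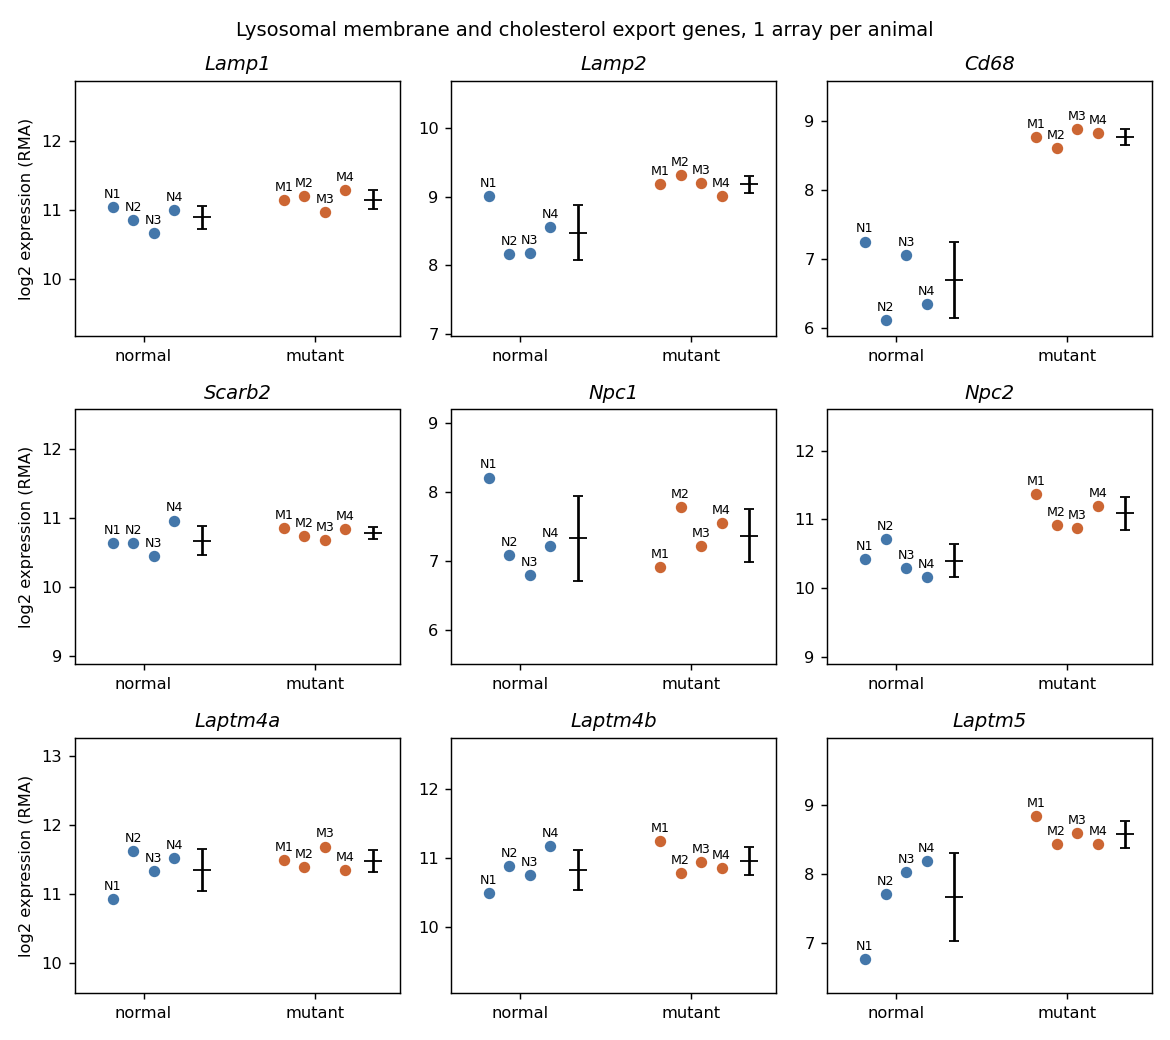
Log2 expression of the 9 measured genes in each array, with normals (N1 to N4, blue) and mutants (M1 to M4, orange) as points and the group mean and SD as black bars. Each panel spans the same number of log2 units around its own centre. The groups do not overlap for Lamp2, Cd68, Npc2 and Laptm5, and N1 stands highest or lowest among the normals in 7 panels.

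Cd68, the macrophage member of the LAMP family, showed the largest change of the 9. Its values were 7.25, 6.11, 7.06 and 6.34 in normals 1 to 4 and 8.77, 8.61, 8.89 and 8.83 in mutants 1 to 4. The mutants lay close together, and the lowest of them stood 1.36 above the highest normal. The mean went from 6.69 ± 0.55 to 8.78 ± 0.12 (SD, n = 4 each), a change of 2.08 ± 0.25 (SE) or 4.24-fold, with adjusted p = 0.0239 in limma. The 95% interval of the difference ran from 1.51 to 2.66. Across all 22626 probe sets that are no controls, where 0.0796% rose past the threshold, Cd68 was also the 1 member probe set of 18 that did so (adjusted p = 0.0367). Cd68 has a single probe set, so no second measurement of it was at hand.

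The Cd68 change lay between 1.89 and 2.27 when 1 animal was left out and was 2.55 without normals 1 and 3, but its call depended on the animals. Cd68 passed without normal 1 or normal 2. The adjusted p in limma was 0.0557 without normal 3 and 0.0870 without normal 4. It was 0.129, 0.112, 0.0996 and 0.127 without mutants 1, 2, 3 and 4. With sex as a covariate it was 0.0656 and with age 0.0502, at changes of 2.08 and 2.04.

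Lamp2, whose product also receives proteins for chaperone-mediated autophagy, was the structural membrane gene with the larger difference. Its values in the probe set with the highest mean were 9.002, 8.16, 8.19 and 8.56 in normals and 9.18, 9.32, 9.20 and 9.01 in mutants. Normal 1 came within 0.01 of mutant 4, while the other normals lay well below all mutants. The means were 8.48 ± 0.39 and 9.18 ± 0.13 (SD, n = 4 each), a difference of 0.70 ± 0.19 (SE, 1.62-fold) that did not pass in limma (adjusted p = 0.446). Its other 3 probe sets differed by 0.43, 0.53 and 0.58, in the same direction, and 1 of them (1416344_at) overlapped between the groups. On that probe set mutant 1 was at 9.40 and the other mutants at 8.69 to 8.79. Without mutant 1 its difference was 0.37, and that of 1416343_a_at went from 0.43 to 0.26.

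Lamp1, the most used marker of the lysosomal membrane, differed less. Its values were 11.03, 10.85, 10.67 and 10.998 in normals and 11.14, 11.20, 10.97 and 11.28 in mutants, and the groups overlapped through mutant 3. The difference was 0.26 ± 0.12 (SE, adjusted p = 0.793 in limma), with a 95% interval from -0.02 to 0.54. That interval lies below the one of Cd68, although the difference between the 2 genes was not tested.

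Scarb2, the LIMP-2 gene, gave small differences on both probe sets. The brighter one read 10.64, 10.64, 10.45 and 10.97 in normals and 10.86, 10.74, 10.68 and 10.85 in mutants. The mutants lay inside the range of the normals. The difference was 0.11 ± 0.13 (SE, adjusted p = 0.935 in limma, 95% interval -0.19 to 0.40), and the second probe set gave 0.04 (interval -0.21 to 0.28). The brighter set turned to -0.02 without normals 1 and 3.

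The partners in cholesterol export differed from each other. Npc2, the soluble carrier, read 10.42, 10.72, 10.30 and 10.17 in normals and 11.37, 10.92, 10.87 and 11.19 in mutants. All mutants lay above all normals, with mutants 1 and 4, both female, highest. The means were 10.40 ± 0.24 and 11.09 ± 0.24 (SD, n = 4 each), a difference of 0.68 ± 0.16 (SE, 1.61-fold, adjusted p = 0.331 in limma). The second Npc2 probe set gave 0.79 ± 0.18 (SE, adjusted p = 0.381 over all probe sets in limma), again with no overlap. Leaving out any 1 animal kept the Npc2 difference between 0.59 and 0.79.

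Npc1, the membrane transporter that receives cholesterol from NPC2, read 8.21, 7.08, 6.80 and 7.22 in normals and 6.92, 7.79, 7.23 and 7.55 in mutants. The groups overlapped throughout, and the highest value of all 8 was that of normal 1, the array with the deviant RNA quality value. The difference was 0.04 ± 0.31 (SE, adjusted p = 0.991 in limma), with a 95% interval from -0.68 to 0.76. Without normal 1 it was 0.33 and without normal 3 it was -0.14. Whether RNA quality had a part in this was not tested.

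Laptm5, the LAPTM gene of haematopoietic cells and microglia, was measured by 3 probe sets that did not give the same picture. All 3 have names ending in _s_at or _x_at. In the fit without probe sets so named, Laptm5 was not measured, and groups did not overlap for 3 of 8 members. The share over all genes is given for the main fit alone (2.27%). The values of these 3 probe sets follow. The brightest read 6.76, 7.71, 8.03 and 8.19 in normals and 8.85, 8.44, 8.59 and 8.43 in mutants. All mutants lay above all normals, with normal 1 far below the other normals. The difference was 0.91 ± 0.29 (SE, 1.88-fold, adjusted p = 0.599 in limma), and it was 0.60 without normal 1.

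A second Laptm5 probe set (1426025_s_at) was far less variable among normals. It read 6.60, 6.44, 6.58 and 6.49 in normals and 7.12, 7.12, 7.29 and 7.38 in mutants. The groups stood apart by more than the range within either of them. The difference was 0.70 ± 0.10 (SE, 1.62-fold) with adjusted p = 0.0909 over all probe sets in limma, the smallest among member probe sets after Cd68. With array weights in the fit it passed (0.73, adjusted p = 0.0373 in limma). That was the only pass for this probe set in 20 alternatives, where its adjusted p in limma reached 0.686. The third and dimmest Laptm5 probe set (1417721_s_at) differed by 0.16 ± 0.21 (SE) and its groups overlapped.

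The broadly expressed relatives of Laptm5 differed little. Laptm4a read 10.93, 11.62, 11.33 and 11.53 in normals and 11.49, 11.39, 11.69 and 11.34 in mutants, a difference of 0.13 ± 0.17 (SE, adjusted p = 0.943 in limma, 95% interval -0.26 to 0.51). Laptm4b, which takes part in sphingolipid and amino acid handling at the lysosome, read 10.49, 10.89, 10.75 and 11.18 in normals and 11.26, 10.79, 10.95 and 10.85 in mutants. Both genes were lowest in normal 1 and otherwise overlapped. The Laptm4b difference was 0.13 ± 0.17 (SE, adjusted p = 0.941 in limma, interval -0.26 to 0.52), and its other 2 probe sets gave 0.14 and 0.16. Without normals 1 and 3, Laptm4a was at -0.10 and Laptm4b at -0.07.

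**Figure D2:**
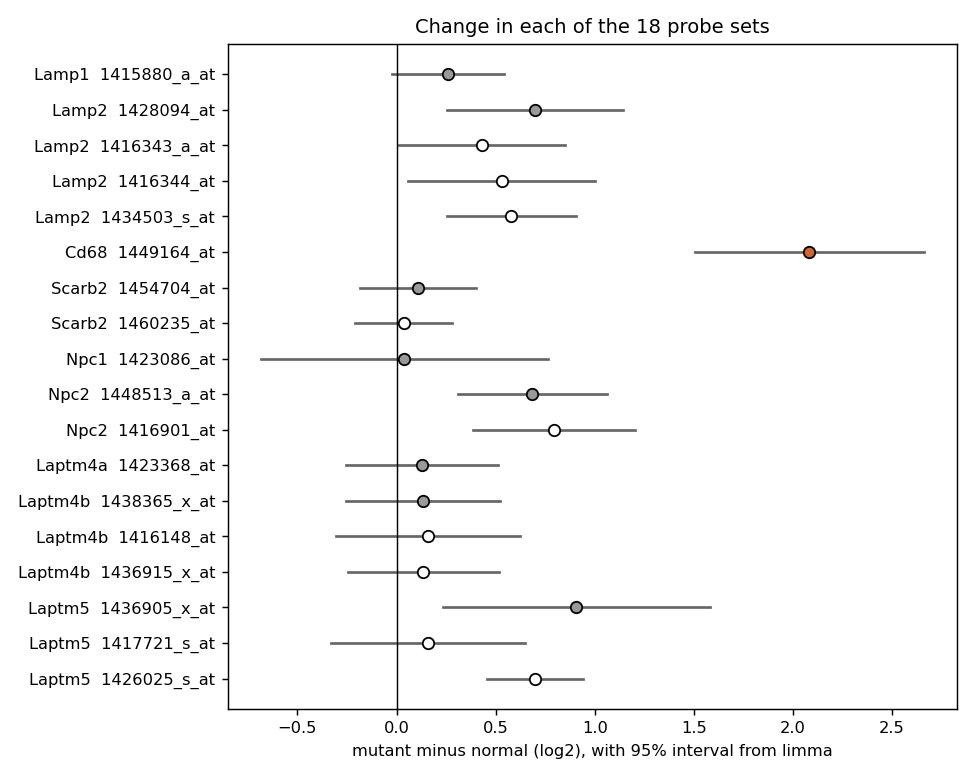
Change from normal to mutant (log2) in each of the 18 probe sets, with the 95% interval from limma. Orange marks the probe set past adjusted p 0.05 over all probe sets (Cd68), grey the probe set that stood for a gene and white the others. The 4 Lamp2 probe sets lie at 0.43 to 0.70 and both Npc2 probe sets at 0.68 and 0.79, while the 3 Laptm5 probe sets spread from 0.16 to 0.91.

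Over probe sets, all 18 had a higher mean in mutants, against 47.1% of all probe sets, and 9 were higher at an unadjusted p under 0.05, against 3.14%. Probe sets of 1 gene were read in the same RNA samples of the same animals and are not independent. The median change over the 18 was 0.35, beside -0.01 over all 22626 probe sets.

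Normal 1 was the highest normal for Cd68, Lamp1, Lamp2 and Npc1 and the lowest for Laptm4a, Laptm4b and Laptm5. It lay within the range of the other normals for Npc2 and Scarb2. For Lamp2 the difference without normal 1 was 0.87, the highest value of any fit that left out 1 animal. For Laptm4a it was -0.01.

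The tissue of a whole hippocampus mixes cell types, and in such bulk samples more cells of a type and more RNA per cell cannot be told apart. The mean of 14 microglia and macrophage markers, none of them a member and none at the level of the Bacillus controls in all arrays, was 6.73 to 7.41 in normals and 7.74 to 8.04 in mutants. Of these 14, 9 had higher means in mutants and 1, Adgre1, the macrophage marker F4/80, rose past the threshold in limma (1.16 ± 0.14 SE, adjusted p = 0.0228). Tyrobp, a signalling adaptor, was at 2.16 and Trem2, its lipid-sensing partner, at 1.52 (adjusted p = 0.327 and 0.121 in limma). P2ry12, Tmem119, Cx3cr1, Csf1r and Itgam, markers of resting microglia or of the lineage, had lower means, at -0.61, -0.25, -0.23, -0.19 and -0.37. The groups overlapped for each of them, with adjusted p from 0.776 to 0.944 in limma. Itgam was dim, with means of 4.49 in normals and 4.12 in mutants. The part of these markers in the values of Cd68 and Laptm5 was not tested.

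Marker lists of other cell types also moved with the groups. Astrocyte means were 8.80 to 9.12 in normals and 9.44 to 9.49 in mutants, over 8 genes of which Gfap rose (2.27 ± 0.22 SE, adjusted p = 0.00787 in limma). Oligodendrocyte means, over 5 of 8 listed genes, were 10.63 to 11.05 in normals and 9.61 to 10.46 in mutants. Striatal means, over 4 of 7 listed genes, were 7.23 to 10.75 in normals and 6.38 to 7.53 in mutants. The median striatal change was -2.53, and all 4 genes had an unadjusted p under 0.05 in limma, with 0 calls. High striatal means thus occurred in normals 1, 3 and 4 and in no mutant. Meningeal and fibroblast means were 5.05 to 5.90 in normals and 5.90 to 6.66 in mutants, with mutants 1 and 3 highest. Without mutants 1 and 3, the difference was 2.03 for Cd68, 0.69 for Lamp2, 0.65 for Npc2 and 0.77 for Laptm5, with no call in limma. Npc2 was highest in mutant 1, which also had the highest choroid plexus mean, and mutant 3, with the second highest, had the lowest Npc2 value of the mutants. The part of these lists in the members' values was not tested.

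**Figure D3:**
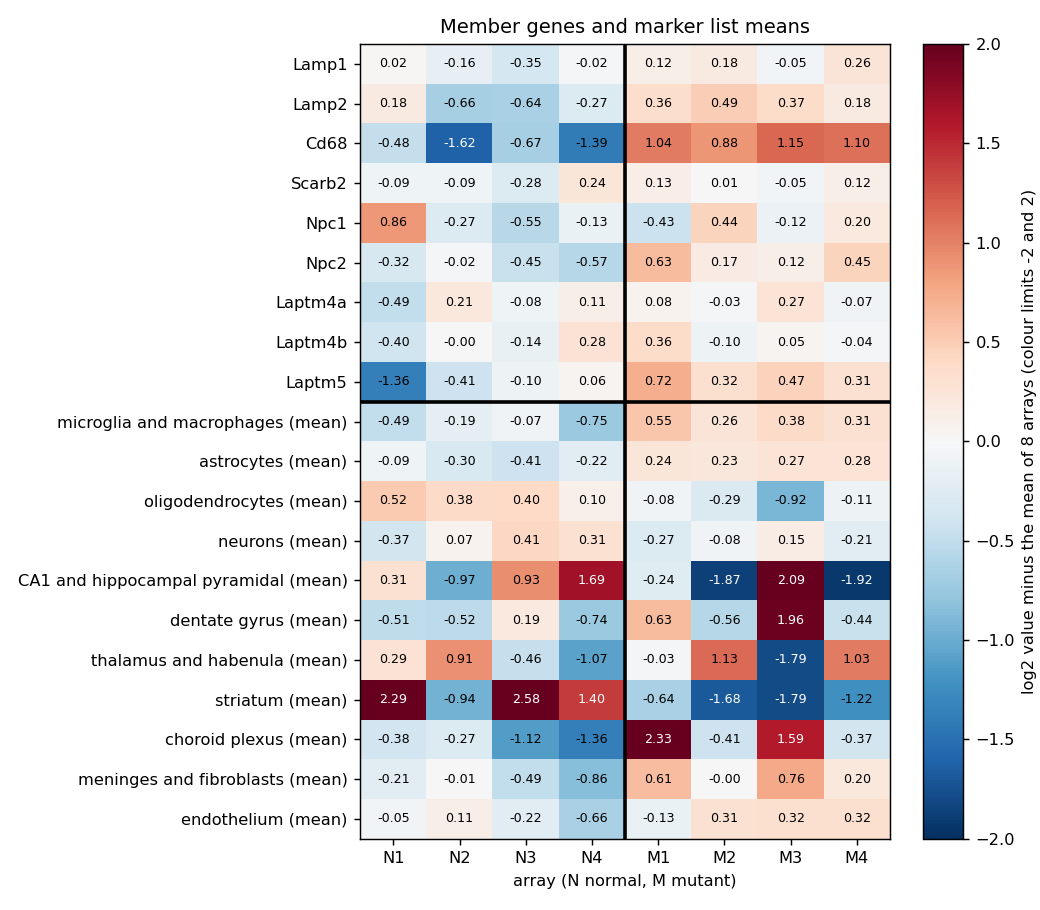
Each member gene (top) and the mean of each marker list (bottom) in the 8 arrays, as the log2 value minus the row's mean over the arrays, printed in each cell and coloured from blue (lower) to red (higher). Cd68, Npc2 and the microglia and astrocyte means are above 0 in all mutants and below 0 in all normals. The striatal mean is high in N1, N3 and N4 alone.

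Animals of equal age and sex could be set side by side in 2 cases, as a description with no test. Mutants 2 and 3 and normal 2 were males of 25.6 weeks. Cd68 was higher by 2.50 and 2.78 in these mutants, Lamp2 by 1.15 and 1.03, Laptm5 by 0.73 and 0.88, and Npc2 by only 0.19 and 0.15. Mutant 1 and normal 1 were females of 38.3 weeks. There Cd68 was higher in the mutant by 1.52, Laptm5 by 2.09, Npc2 by 0.95 and Lamp2 by 0.18, while Npc1 was at -1.29. On the probe sets that stood for the genes, the order of the members thus differed between the 25.6-week males and the 38.3-week females. Both male gaps rest on normal 2, the lowest normal for Cd68 and Lamp2 and the highest for Npc2. The female comparison rests on normal 1. Other probe sets gave other gaps in both cases. For normal 1 and mutant 1, Lamp2 read 5.77 and 6.60 on 1416343_a_at, 8.75 and 9.40 on 1416344_at, and 7.51 and 7.72 on 1434503_s_at. Laptm5 read 6.60 and 7.12 on 1426025_s_at and 4.67 and 5.69 on 1417721_s_at. In normal 2, mutant 2 and mutant 3, Lamp2 read 5.41, 5.98 and 5.90 on 1416343_a_at and 8.48, 8.75 and 8.79 on 1416344_at. On 1434503_s_at it read 6.97, 7.88 and 7.79. Laptm5 read 6.44, 7.12 and 7.29 on 1426025_s_at and 5.10, 4.86 and 5.13 on 1417721_s_at in these 3 males.

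The change did not differ between the sexes past the threshold for any member. In the limma interaction over 12393 genes, 0 passed and 1419 had an unadjusted p under 0.05, and the smallest adjusted p of a member was 0.386, for Lamp2. The Lamp2 change was 1.08 in males and 0.32 in females, and that of Npc2 was 0.38 in males and 0.99 in females, from 2 animals in each cell. For Lamp2 these values are those of the probe set that stood for the gene. The Lamp2 change was also larger in males on 1434503_s_at, but larger in females on 1416343_a_at and 1416344_at. Normal 1 was 1 of the 2 normal females.

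Other genes of the lysosomal membrane did not share a common direction. Of 28 measured genes from a list of 36, 15 had higher means in mutants, 0 passed in limma and 3 had an unadjusted p under 0.05, with a median change of 0.04. The counts at this unadjusted level, here and for the lists below, are in either direction. Over all 12393 genes, 502 were higher and 307 lower at that level. Slc11a1, which encodes the metal transporter NRAMP1 of phagocyte lysosomes, came closest at 0.87 ± 0.12 (SE, adjusted p = 0.0555 in limma). Tpcn1, a two-pore channel gene of endolysosomes, was at 0.68. Lamp5, a brain LAMP relative found in neurons, was at -1.92, from 9.80 ± 1.12 to 7.89 ± 1.55 (SD, n = 4 each). Mutant 3 had 10.03 and the other mutants 6.57 to 8.02, and the CA1 marker mean was likewise highest in mutant 3 (9.64, against 5.63 to 7.31 in the other mutants), whose part in the Lamp5 value was not tested.

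Among other tetraspanins, the family of Cd63, and other scavenger receptors, 11 of 16 measured genes had higher means, with a median of 0.29. In limma 0 passed and 4 had an unadjusted p under 0.05. Cd9, a tetraspanin gene, was at 0.68 (adjusted p = 0.446), Cd37, a tetraspanin gene of leukocytes, at 0.55 and Cd163, the haemoglobin scavenger receptor gene of perivascular macrophages, at -1.08. The Cd163 mean in mutants, 2.98, was below the highest Bacillus control.

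Genes for release, transfer and efflux of cholesterol gave 11 of 16 higher means and a median of 0.23. In limma 0 passed and 4 had an unadjusted p under 0.05. Apoe, the main lipid carrier of the brain, was at 0.69 (adjusted p = 0.680), Lrp1, an apolipoprotein E receptor gene, at 0.55 and Stard3, a late endosomal sterol transfer gene, at -0.41. Cholesterol synthesis genes and their sensors had higher means in 21 of 21, by 0.01 to 0.60, with a median of 0.31. In limma 0 of them passed and 6 had an unadjusted p under 0.05, led by the synthesis genes Tm7sf2 (0.52), Mvd (0.43) and Lss (0.60), each with adjusted p of 0.685 or more.

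The transcription factors and sorting machinery that serve lysosomal proteins gave the smallest values. Of 24 measured genes, 14 had higher means, with a median of 0.0066. In limma 0 passed and 0 had an unadjusted p under 0.05. The smallest p belonged to Ap3s1 (0.27) and Ap3d1 (0.23), subunits of the AP-3 adaptor that sorts LAMP proteins, and Igf2r (0.25), a mannose 6-phosphate receptor gene.

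**Figure D4:**
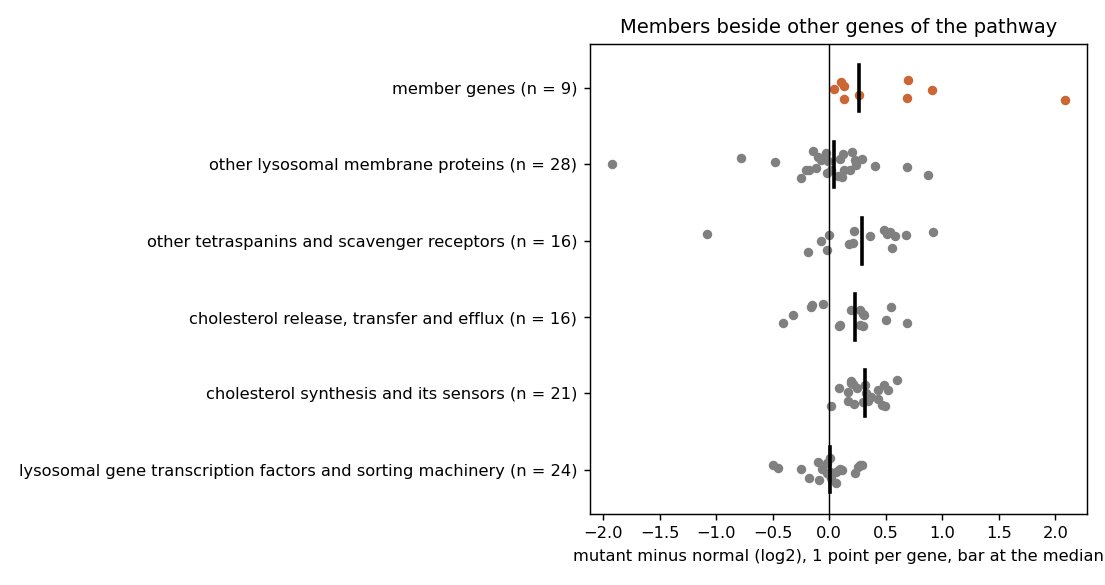
Change from normal to mutant (log2) of each member gene (orange) and of the measured genes of 5 related lists (grey), with a bar at each median. Medians are 0.26 for the members, 0.04 for other lysosomal membrane genes and 0.31 for cholesterol synthesis, and Cd68 lies apart from all other points.

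The genes whose profile over the 8 arrays was most like that of a member were sought among 10259 genes above the Bacillus controls, as a description. With 8 arrays and so many genes, high values of Pearson's r arise readily. For Cd68 they were the cathepsin gene Ctsz and the beta-glucan receptor gene Clec7a (r = 0.96 for both), and for Npc2 they were Renbp and the immunoproteasome gene Psmb8 (0.98 for both). For Lamp1 they were Irf9, of interferon signalling, and the lysosomal beta-galactosidase gene Glb1 (0.96 for both). For Laptm5 they were Ctsa, the protective protein of lysosomal galactosidase and neuraminidase (0.94), and Ahdc1 (0.92), at 0.83 and 0.76 without normals 1 and 2, the arrays farthest from the median of Laptm5. For Npc1 they were the kinase gene Mtor (0.995, and 0.98 without normal 1 and mutant 2) and Dll1 (0.99). Slc22a2 and Plek were nearest to Lamp2 (0.97 and 0.96), Usp47 and Polr2m to Scarb2 (0.97 and 0.96), and Fxyd6 and Ift140 to Laptm4b (0.95 for both). Without the 2 arrays farthest from each member's median, Plek was at 0.93, Slc22a2 at 0.90, Usp47 at 0.92, Polr2m at 0.88, Fxyd6 at 0.95 and Ift140 at 0.86.

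Once group means were subtracted, the nearest genes were others for Cd68 (Vrk1 and Prom1), Lamp1 (Zfp334 and Echdc1), Lamp2 (Ttf1 and Hsd17b4), Npc2 (Nmb and Erp29) and Laptm5 (Ro60 and Cdipt). For Npc1 Mtor was nearest again, followed by Rpap3. For Laptm4a, Acin1 and Rfc3 were nearest on both measures. Usp47 and Il13ra1 were nearest to Scarb2, and Pdia3 and Apmap to Laptm4b.

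**Figure D5:**
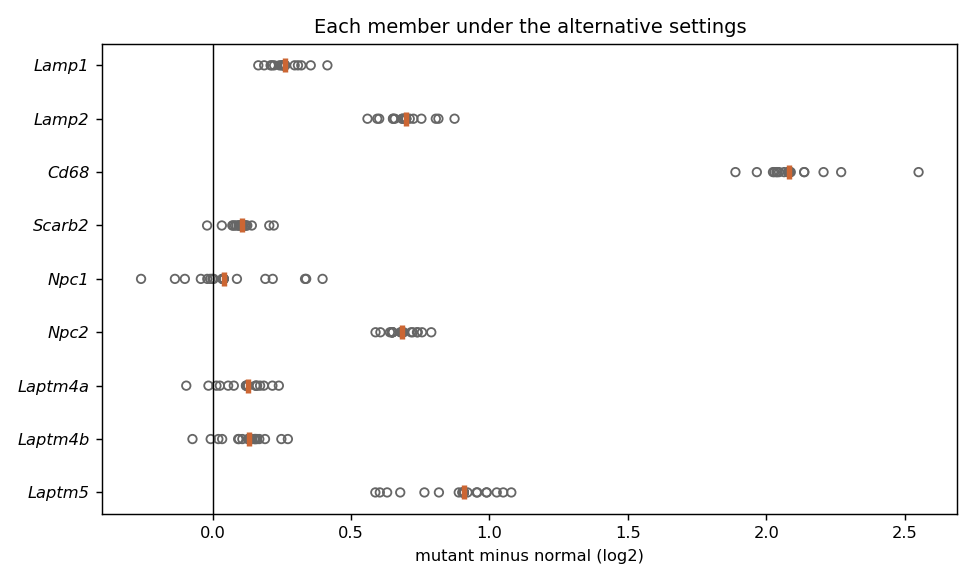
Change from normal to mutant (log2) of each member gene as reported (orange bar) and under each alternative setting (open circles). Cd68 ran from 1.89 to 2.55, Lamp1, Lamp2, Npc2 and Laptm5 stayed above 0 in every setting that was run, and Scarb2, Npc1, Laptm4a and Laptm4b crossed 0.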

How the data were processed

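The deposited values are log2 expression per probe set, made by the authors with RMA (background correction, normalization and summary of probes), with GCOS 1.4 also named, per the submitters' processing notes. Scanner files were not used here. Of 22690 probe sets 64 were controls, 20380 had 1 gene symbol, 691 several and 1555 no listed gene. Identifiers of 99.9% of those with 1 symbol matched the gene table (GRCm38.p6). The probe set with the highest mean stood for a gene. Array medians were 6.09 to 6.17. Groups were compared with limma 3.58.1 (lmFit, eBayes) in R 4.3.3, with Benjamini-Hochberg adjustment over all genes or all probe sets and a threshold of 0.05. Members and lists were chosen with earlier results of these data known. Named genes are Gusb, all members, up to 3 of each list by smallest p and the 2 genes most like each member; Tyrobp and the markers with lower means were named after their values were seen. On simulated data for mutant against normal over 12393 genes, 67% of changes of 1 and 90% of changes of 2 (log2) were recovered, with 7 false calls. The simulated noise was independent, without the array differences described above, and 100 genes were changed by each size. These shares thus do not give the recovery in the real fit, which called 13 genes. Replicate numbers follow accession order and were not used to pair animals in the reported fits. Whether animals of neighbouring numbers are littermates is not given in the sources used here. Alternatives changed the probe set rule, normalization, variance model, covariates and animals. Figures were drawn with Python 3.11.15.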

Additional observations from a re-analysis of the deposited data

Results flagged for a closer look

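On 1 of the 4 Lamp2 probe sets (1416344_at), mutant 1 lay far from its group, at 9.40 against 8.69 to 8.79 in the other mutants. Its gap to the nearest mutant took up 0.86 of the group's range, above the critical value of Dixon's test at the 95% level. This was 1 of 36 groups of 4 arrays checked, and chance gives such a value in about 5 of 100 groups. The Lamp2 probe set used for the gene (1428094_at) had mutant 1 at 9.18, inside the range of the other mutants.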

How the results depend on the processing

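Of 23 alternatives, Cd68 kept its call in 11, and no other member passed in the gene fit under any. The count of members past the threshold was 0 with sex, age or both as covariates, without mutants 1 and 3 and without mutants 2 and 4, and 0 to 1 when 1 animal was left out. Over probe sets it was 0 in these fits and with the animal number series as a block, 2 with array weights, and 0 to 1 when 1 animal was left out. Counts over all genes were 21 with the mean of all probe sets, 8 without dim genes, 36 with array weights, 6 without mutants 1 and 3, 5 without normals 1 and 3, 6 without mutants 2 and 4, and 5 to 40 when 1 animal was left out. The count of members with a higher mean ran from 6 to 9, and of those whose groups do not overlap from 3 to 5. No share over all genes is given beside them for the alternatives. Both counts were added after the data were seen. So was a fit with the 4 pairs of nearest animal numbers as a replicate block. It called 0 members, 0 member probe sets and 2 genes in all, with Cd68 at 2.08 (adjusted p = 0.120 in limma). Deviations from the group means correlated at -0.24 to 0.39 within these pairs, over 0.1 in 1 of 4. With only 4 pairs these values cannot decide whether the numbers pair the animals.

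Values near 0 changed sign. Npc1 was at -0.0085 with age, -0.00072 with sex and age, -0.26 without mutants 2 and 4, and -0.14 to 0.33 when 1 animal was left out. Laptm4a was at -0.095 without normals 1 and 3 and -0.015 to 0.22 when 1 animal was left out. Laptm4b was at -0.0069 without mutants 1 and 3 and -0.073 without normals 1 and 3, its probe set 1416148_at at -0.059, -0.077 and -0.0036 to 0.26 when 1 animal was left out, and 1436915_x_at at -0.035 without normals 1 and 3. Scarb2 was at -0.020 without normals 1 and 3, and its probe set 1460235_at at -0.0012 with array weights, -0.076 without mutants 1 and 3 and -0.028 to 0.097 when 1 animal was left out. Laptm5 probe set 1417721_s_at was at -0.0012 without mutants 1 and 3. The cause of these shifts was not tested.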

Other observations

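The spread among normals was larger than among mutants for 8 of the 9 members, and for 65.9% of all 12393 genes. Without normal 1 it was larger for 7 of 9 members and 54.0% of all genes. The SD of Cd68 was 0.55 in normals and 0.12 in mutants, and that of Laptm5 was 0.64 and 0.19, while Npc2 had 0.24 in both groups.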
